A study of Mus musculus with 36 samples.

Results

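The comparison described here sets mouse embryonic stem cells that were never lit and were harvested at 4 h against matching never-lit cells harvested at 0 h. Its members are 12 of the 36 RNA-seq libraries of the series: 3 LiTEC and 3 wild-type (WT) libraries at 4 h, and 3 LiTEC and 3 WT libraries at 0 h. They were chosen by their labels (no blue light, T4 or T0), not by any measured value. Earlier results of these data were known when the members and the gene lists used below were chosen. In the lit arms of the study the clock starts at the end of 30 min on a blue LED panel, and the dark cultures are the matched arm without that light. Every culture, WT included, received 2 µg/ml doxycycline over 2 days and grew in serum-free medium with a MEK inhibitor, a GSK3β inhibitor and leukaemia inhibitory factor (LIF). LiTEC cells are labelled as transfected with LiTEC, and the labels give no promoter or clone for that construct. Replicate 1 of each group is labelled batch 1, and replicates 2 and 3 are labelled batch 2. Whether replicates came from independent cultures is not labelled, and the spread behind each p-value may therefore be technical in part.

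Medium with these inhibitors holds mouse embryonic stem cells in naive pluripotency: LIF acts through STAT3, and the MEK inhibitor blocks the ERK cascade, whose own targets include its brakes, the Dusp and Spry genes. Such cells divide fast and draw steadily on glucose, amino acids and growth factors in the dish. Immediate early genes are the transcripts that cells raise first after a stimulus or after handling, and p53 targets, SREBP2 targets and endoplasmic reticulum (ER) chaperones are standard readouts of DNA damage signalling, sterol demand and protein folding load.

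The 12 libraries held 12969811 to 21842256 counts, with a mean of 16760100 ± 2165420 (SD, n = 12). WT replicate 3 at 4 h stood apart, with 26.1% of its counts on the ribosomal RNA locus Gm26917, against 8.12% to 10.8% in the other 11 libraries, so results that turn on it are also given without it. The 8 embryonic stem cell markers summed to 2978 to 4060 CPM (counts scaled to a library of 1e+06) at 4 h and 3021 to 4064 CPM at 0 h. The fibroblast and feeder markers summed to 2.37 to 10.4 CPM at 4 h and 3.34 to 7.48 CPM at 0 h. Of the markers of fibroblasts, primitive endoderm, neuroectoderm, mesendoderm and trophectoderm that could be tested, 0 of 20 were called by edgeR or by DESeq2, and 4 of the 20 had an unadjusted p under 0.05. The replicate block called 2 neuroectoderm and 1 mesendoderm markers lower, 1 mesendoderm marker was called lower without WT replicate 3 at 4 h, and 1 neuroectoderm marker was called without WT replicate 3 at 0 h.

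Never-lit cells harvested at 4 h differed from never-lit cells harvested at 0 h at many genes, mostly by small amounts. The cause of these differences was not tested. Of 17000 tested genes, 1819 were called at an adjusted p below 0.05 in edgeR's quasi-likelihood test with genotype and batch as covariates, or 10.7%. Among them 958 (5.64%) were higher at 4 h and 861 (5.06%) were lower. The size of the log2 fold change among called genes had a median of 0.34 and ran from 0.12 to 1.90, and 57 called genes, 22 higher and 35 lower, changed by at least 1 on the log2 scale. The median over all tested genes was −0.000269. The levels of the 6 libraries at 4 h and the 6 at 0 h did not overlap for 341 of the called genes and for 369 of all tested genes.

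Because same-numbered libraries deviated together, a fit with the replicate number as a block was also made, and it called 2816 genes (16.6%), 1463 higher (8.61%) and 1353 lower (7.96%), including all 1819. Without WT replicate 3 at 4 h, 2233 of 17539 genes were called (12.7%), 1057 higher (6.03%) and 1176 lower (6.71%), and 1668 of the 1819 (91.7%) kept their call. The count fell to 920 without WT replicate 1 at 0 h, to 1133 without WT replicate 2 at 0 h and to 1175 without WT replicate 3 at 0 h. Of the 119 called genes selected by rule for naming, 79 stayed called whichever single library was left out.

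**Figure D1:**
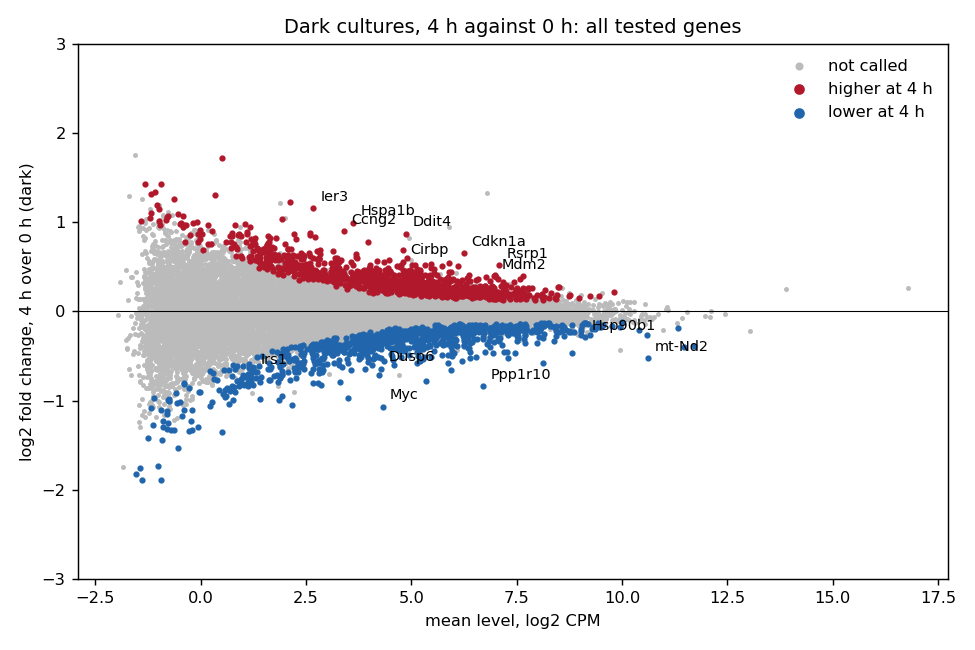
Each point is 1 of the 17000 tested genes, placed by its mean level over the dark libraries (log2 CPM, horizontal) and its log2 fold change of 4 h over 0 h (vertical), with called genes in red (958 higher) and blue (861 lower). Most called genes lie close to 0, and Myc, Ppp1r10, Ier3, Ccng2 and Ddit4 are among the labelled genes farthest from it.

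The clearest single fall was in Ppp1r10 (chr17:35916434-35932283, plus strand, GRCm38), which encodes PNUTS, a nuclear subunit that directs protein phosphatase 1 to transcribing RNA polymerase II. At 4 h it had 76.9, 68.1 and 70.5 CPM in LiTEC cells and 79.7, 65.5 and 88.4 CPM in WT cells. At 0 h it had 113, 127 and 136 CPM in LiTEC cells and 141, 120 and 167 CPM in WT cells. Every 4 h library lay below every 0 h library, and the log2 fold change was −0.84 ± 0.08 (SE; edgeR adjusted p = 7.76e-05). Over the 3 times in the dark its mean was 134 CPM at 0 h, 171 ± 17.4 CPM at 1 h (SD, n = 6) and 75.1 CPM at 4 h. Rsrp1, which encodes a nuclear arginine- and serine-rich protein, was lower at 1 h and higher at 4 h than at 0 h, with means of 112 CPM at 0 h, 83.7 ± 5.49 CPM at 1 h (SD, n = 6) and 160 CPM at 4 h. Its 6 libraries at 4 h (lowest 148, median 154 and highest 181 CPM) lay above its 6 at 0 h (99.5, 109 and 132 CPM), a log2 fold change of 0.52 ± 0.05 (edgeR adjusted p = 7.76e-05). The 1 h levels are descriptions and were not tested here.

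Myc (chr15:61985391-61990374, plus strand), a transcription factor that LIF and growth factor signalling sustain in these cells, fell in both genotypes. It had 15.6, 6.58 and 11 CPM in LiTEC cells and 19.1, 8.06 and 17.2 CPM in WT cells at 4 h, against 23.6, 16.0 and 18.7 CPM in LiTEC cells and 38.5, 25.9 and 39.9 CPM in WT cells at 0 h. Within each genotype the times did not overlap, although across genotypes they did, and the log2 fold change was −1.07 ± 0.17 (edgeR adjusted p = 0.00154). Of 14 tested genes of the LIF and STAT3 list 2 rose and 2 fell, with a median of 0.04. For comparison with this and every later list, 5.64% of all tested genes were called higher and 5.06% lower. The transcription factor gene Stat3 (0.21 ± 0.05) and its feedback inhibitor gene Socs3 (0.26 ± 0.05) rose, and Mycn, a paralogue of Myc, fell with it (−0.29 ± 0.08, edgeR adjusted p = 0.0291). With the replicate block the list had 4 higher and 3 lower members. Mycn lost its call in 5 of the 12 fits without 1 library (adjusted p up to 0.0701, without WT replicate 3 at 0 h), and Stat3 lost it without WT replicate 1 at 0 h (0.0559).

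Some of the brakes of ERK signalling fell. Of 13 tested FGF-ERK feedback genes 0 rose and 4 fell, with a median of −0.12. With the replicate block 1 rose and 6 fell, 1 was called higher and 5 lower without WT replicate 3 at 4 h, and 2 were called in each of the 8 other fits without 1 library that moved the count by over 1.5 times. Dusp6 (chr10:99263231-99267489, plus strand), a phosphatase that switches off ERK, had 13.5, 7.86 and 11.7 CPM in LiTEC cells and 24.3, 13.8 and 20.03 CPM in WT cells at 4 h, against 21.2, 11.6 and 15.1 CPM in LiTEC cells and 36, 23.4 and 36.3 CPM in WT cells at 0 h. The times overlapped within each genotype as well as across genotypes. Each same-numbered pair of libraries was lower at 4 h (−0.64 ± 0.13, edgeR adjusted p = 0.0066). Spred1, Spry2 and Spry4 encode inhibitors of the same cascade and changed by −0.28 ± 0.06, −0.32 ± 0.10 and −0.78 ± 0.22. Spry4 lost its call in 8 and Spry2 in 9 of the 12 fits without 1 library (adjusted p up to 0.0907 and 0.109, each without WT replicate 3 at 0 h). The replicate block gave Spry4 an adjusted p of 1.25e-05.

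**Figure D2:**
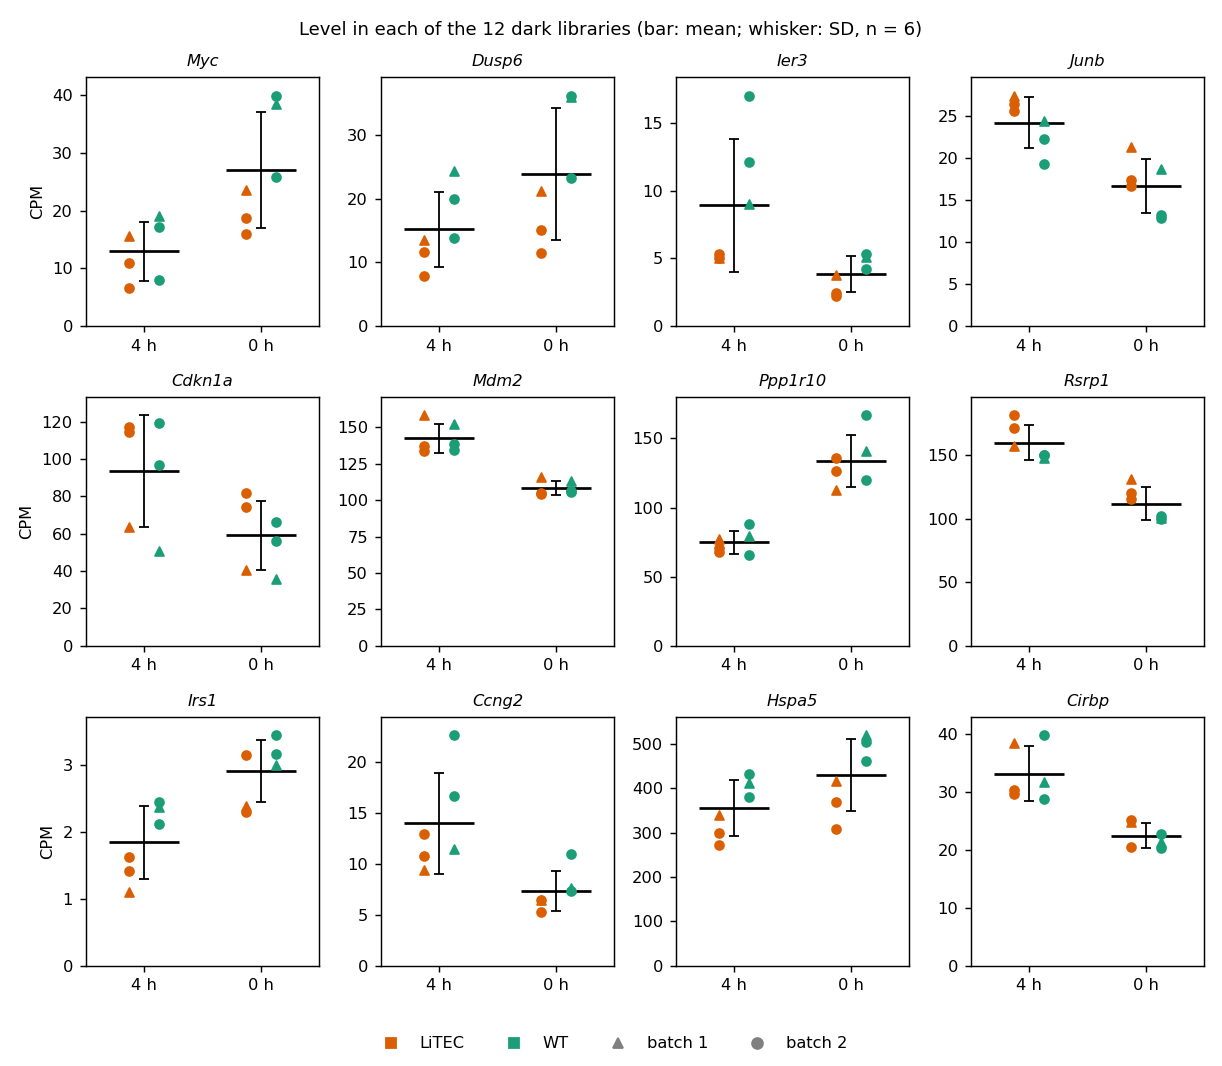
Levels of 12 genes in CPM (vertical axis from 0) in each dark library at 4 h (left) and 0 h (right) of each panel, LiTEC in orange and WT in green, batch 1 as triangles and batch 2 as circles, with the mean and SD of the 6 libraries. Ppp1r10, Mdm2, Rsrp1 and Cirbp do not overlap between times, while Myc and Dusp6 overlap between times, with each WT library above the LiTEC library of the same number and time.

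Of 26 tested immediate early genes 9 rose, 1 fell and 16 were not called, with a median log2 fold change of 0.30. Ier3, which modulates cell survival after stimulation, had 5.01, 5.30 and 5.04 CPM in LiTEC cells and 9, 17.1 and 12.1 CPM in WT cells at 4 h, against 3.75, 2.47 and 2.23 CPM in LiTEC cells and 5.13, 5.33 and 4.22 CPM in WT cells at 0 h. Every 4 h library was above the 0 h libraries of its own genotype, and the change was 1.16 ± 0.17 (edgeR adjusted p = 0.00105). Junb, an AP-1 subunit, had 19.2, 25 and 27.4 CPM at 4 h as lowest, median and highest, against 12.8, 17.0 and 21.3 CPM at 0 h. Its groups overlapped only through LiTEC replicate 1 at 0 h and WT replicate 3 at 4 h, and it changed by 0.55 ± 0.07 (edgeR adjusted p = 0.000533). The orphan nuclear receptor gene Nr4a1 (0.37 ± 0.07) did not overlap between times, and the antiproliferative gene Btg2 rose by 0.42 ± 0.06. Fosb, Gadd45b, Zfp36 and Arc also rose, by 0.87, 0.43, 0.40 and 0.32. The member that fell was Zfp36l1, which encodes a protein that speeds decay of AU-rich mRNAs, with 134, 150 and 160 CPM at 4 h and 188, 209 and 227 CPM at 0 h (lowest, median, highest; −0.47 ± 0.06). The classical members Fos (0.22 ± 0.32) and Egr1 (0.07 ± 0.25) were not called. The count of called members ran from 6, without WT replicate 1 at 0 h, to 10 over the fits without 1 library.

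The promoters of 3 immediate early genes called higher are printed below, of which Nr4a2 rose mainly in batch 1. They were picked because they carry several copies of the half-site of the cyclic AMP response element (TGACG, searched on both strands). CREB and ATF family factors can bind there. The runs are 300 bases in RefSeq's GRCm38.p6, 5′ to 3′ on the gene's strand, with matches in capitals: Btg2 at chr1:134079106-134079405 (minus strand), Nr4a1 at chr15:101266596-101266895 (plus strand) and Nr4a2 at chr2:57123954-57124253 (minus strand). The 2 matches in Btg2 overlap in 1 full palindromic element, TGACGTCA.
Btg2: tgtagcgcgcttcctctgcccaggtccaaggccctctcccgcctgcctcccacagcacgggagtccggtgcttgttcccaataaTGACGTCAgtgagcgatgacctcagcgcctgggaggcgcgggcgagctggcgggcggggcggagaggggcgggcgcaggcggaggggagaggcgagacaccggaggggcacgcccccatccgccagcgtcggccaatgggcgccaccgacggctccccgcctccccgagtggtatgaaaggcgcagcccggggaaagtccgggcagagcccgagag
Nr4a1: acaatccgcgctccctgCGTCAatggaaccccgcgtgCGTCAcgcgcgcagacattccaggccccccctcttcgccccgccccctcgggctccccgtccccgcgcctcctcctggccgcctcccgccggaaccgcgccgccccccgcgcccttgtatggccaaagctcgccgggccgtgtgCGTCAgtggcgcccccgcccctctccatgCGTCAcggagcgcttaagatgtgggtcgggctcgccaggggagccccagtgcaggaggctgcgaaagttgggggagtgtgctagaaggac
Nr4a2: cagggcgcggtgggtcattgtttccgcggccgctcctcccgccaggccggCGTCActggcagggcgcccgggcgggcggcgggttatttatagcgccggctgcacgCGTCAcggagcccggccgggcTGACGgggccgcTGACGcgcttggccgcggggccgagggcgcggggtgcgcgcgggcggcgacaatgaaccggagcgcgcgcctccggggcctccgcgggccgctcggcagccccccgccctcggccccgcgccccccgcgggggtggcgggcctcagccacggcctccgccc
The half-site was in 10 of the 21 tested immediate early genes that have a promoter in that table, 5 of them called. Of all 21, 9 were called, and Fos, Nr4a3, Atf3, Dusp1 and Maff held the half-site without being called. It was in 20.8% of all 32851 promoters, 29.6% of those of tested genes, 35.4% of those of genes called higher and 29% of those of genes called lower. Promoters of genes called higher had a median GC content of 64% and those of genes called lower 58.7%, so the letters of any GC-containing motif are not equally likely in both.

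Of 19 tested p53 targets 9 rose and 0 fell, with a median of 0.15. Cdkn1a (chr17:29090976-29100727, plus strand), which encodes the cell cycle inhibitor p21, had 63.5, 117 and 114 CPM in LiTEC cells and 50.5, 96.9 and 119 CPM in WT cells at 4 h, against 40.6, 81.8 and 74.3 CPM in LiTEC cells and 35.5, 66.5 and 56.2 CPM in WT cells at 0 h. Batch 1 libraries, the first of each group of 3, were lower than batch 2 libraries at both times, and each was higher at 4 h than its same-numbered 0 h library (0.65 ± 0.07, edgeR adjusted p = 7.76e-05). Mdm2 (chr10:117688875-117710758, minus strand), the ubiquitin ligase that degrades p53, had 134, 138 and 158 CPM at 4 h and 104, 106 and 116 CPM at 0 h (lowest, median, highest) with no overlap, a change of 0.39 ± 0.04 (edgeR adjusted p = 7.76e-05). Trp53inp1, a stress-induced autophagy and death gene, rose by 0.40 ± 0.05, the AKT inhibitor gene Phlda3 by 0.44 ± 0.10, and the TRAIL death receptor gene Tnfrsf10b by 0.32 ± 0.07. The apoptosis gene Bbc3 rose by 0.41, and Plk2, Zmat3 and Ccng1 by 0.35, 0.26 and 0.15. Without WT replicate 3 at 4 h 8 were called higher and 1 lower: Ccng1 was no longer called (edgeR adjusted p = 0.0603), and the apoptosis gene Pmaip1 was called lower (−0.35).

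Genes of insulin signalling and nutrient sensing changed in both directions. Of 14 genes of the glucose and insulin list 1 rose and 4 fell, with a median of −0.21. Ccng2, a cyclin that FOXO factors raise when insulin signalling is low, had 9.38, 12.9 and 10.8 CPM in LiTEC cells and 11.4, 22.6 and 16.7 CPM in WT cells at 4 h, against 6.40, 5.31 and 6.41 CPM in LiTEC cells and 7.59, 11 and 7.33 CPM in WT cells at 0 h. Each genotype's 4 h libraries lay above its 0 h libraries (0.90 ± 0.13, edgeR adjusted p = 0.00105). The insulin receptor substrate genes Irs1 (−0.67 ± 0.16) and Irs2 (−0.37 ± 0.07) and the receptor gene Igf1r (−0.22 ± 0.05) fell. Irs1 was a low-count gene, with 1.11, 1.87 and 2.44 CPM at 4 h and 2.29, 3.07 and 3.44 CPM at 0 h (lowest, median, highest). Bcl6, a transcriptional repressor, fell by 0.40 on the log2 scale and lost its call in 10 of the 12 fits without 1 library (adjusted p up to 0.123, without WT replicate 2 at 0 h).

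Inhibitors of the growth kinase mTORC1 were among the genes that rose. Ddit4, whose product REDD1 restrains mTORC1, had 29.5, 34.9 and 51.3 CPM at 4 h against 11, 21.5 and 25.9 CPM at 0 h (lowest, median, highest), with no overlap and a change of 0.87 ± 0.16 (edgeR adjusted p = 0.00379). Sesn2, which relays amino acid shortage to mTORC1, was the 1 called gene of 25 tested ATF4 targets (0.26 ± 0.05; list median 0.03). Of 24 lysosome and autophagy genes 4 rose and 0 fell, with a median of 0.09. Without WT replicate 3 at 4 h 6 were called higher and 1 lower, and with the replicate block 5 higher and 1 lower. Those called with all libraries included Flcn (0.52 ± 0.08) and Rragc (0.26 ± 0.06), which act together on mTORC1 at the lysosome, and the autophagy receptor gene Sqstm1 (0.22 ± 0.05). Of 26 glycolysis and hypoxia genes 3 rose (Ddit4, Pfkl and Ldha) and 1 fell (Pdk1, −0.21 ± 0.04), with a median of 0.12. With the replicate block 7 rose and 1 fell, 2 were called in each of 6 fits without 1 library, and Pfkl and Ldha each lost their call in 6 of the 12 fits without 1 library (adjusted p up to 0.11 and 0.0788, each without WT replicate 1 at 0 h). Outside the lists, the glycolytic regulator gene Pfkfb4 (0.70 ± 0.13) and the enolase gene Eno2 (0.86 ± 0.12) rose, neither with any overlap between times.

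Of 25 cholesterol synthesis and SREBP2 target genes 6 rose and 0 fell, with a median of 0.13, and with the replicate block 10 rose. Insig1, the sterol sensor partner that holds SREBP in the ER, had 113, 118 and 124 CPM at 4 h and 87.0, 96.6 and 109 CPM at 0 h (lowest, median, highest), without overlap (0.28 ± 0.05, edgeR adjusted p = 0.00162). The enzyme genes Msmo1 (0.30 ± 0.06), Lss (0.27 ± 0.06) and Tm7sf2 (0.44 ± 0.09), the thiolase gene Acat2 (0.17) and the factor gene Srebf2 (0.15 ± 0.04) also rose. The count of called members ran from 4 to 12 over the fits without 1 library, with 11 higher and 1 lower without WT replicate 3 at 4 h, and Srebf2 lost its call in 3 of them (adjusted p up to 0.0597, without WT replicate 1 at 0 h).

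**Figure D3:**
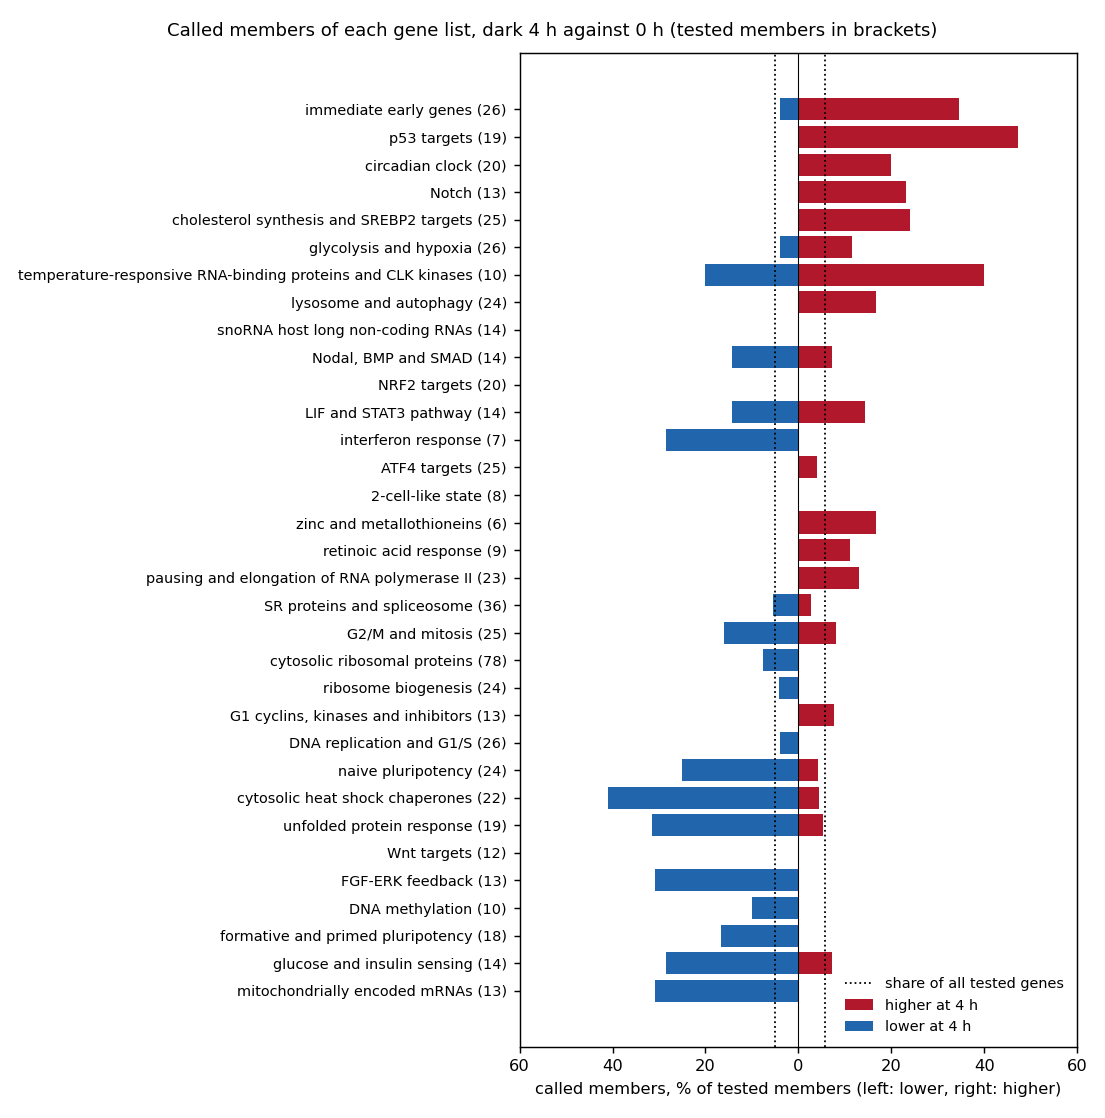
Share of the tested members of each gene list that were called higher at 4 h (red, to the right) or lower (blue, to the left) in percent, with the number tested in brackets, lists ordered by their median log2 fold change and dotted lines at the shares of all tested genes, 5.64% and 5.06%. p53 targets reach farthest to the right, with 9 of 19 called higher, and cytosolic heat shock chaperones farthest to the left, with 9 of 22 called lower.

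Of 19 tested unfolded protein response genes, most of which encode proteins of the ER, 1 rose, 6 fell and 12 were not called, with a median of −0.11. Hspa5, which encodes BiP, the main ER chaperone and sensor of folding load, had 341, 271 and 299 CPM in LiTEC cells and 412, 379 and 432 CPM in WT cells at 4 h, against 416, 309 and 369 CPM in LiTEC cells and 520, 462 and 505 CPM in WT cells at 0 h. WT libraries separated by time, LiTEC libraries overlapped, and each same-numbered pair was lower at 4 h (−0.27 ± 0.06, edgeR adjusted p = 0.00747). Hsp90b1, which encodes GRP94, changed by −0.29 ± 0.04, and Calr, a lectin chaperone gene, by −0.26 ± 0.04 with no overlap between times. The disulphide isomerase genes Pdia4 (−0.26 ± 0.05) and Pdia3 (−0.22 ± 0.05) fell too, as did Manf (−0.20), and Edem1, which helps clear misfolded glycoproteins, rose (0.21). The called members ran from 5 to 10 over the fits without 1 library, with 10 without WT replicate 3 at 4 h.

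Of these genes, Hspa5, Hsp90b1 and Calr hold an ER stress element within 250 bases before to 50 bases after their start, and their promoters are printed to show it. The element was searched as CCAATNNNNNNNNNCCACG on both strands, is known as the site where ATF6 acts with NF-Y, and stands in capitals in these 300-base runs from RefSeq's GRCm38.p6, 5′ to 3′ on the gene's strand. They are Hspa5 at chr2:34771840-34772139 (plus strand), Hsp90b1 at chr10:86705395-86705694 (minus strand) and Calr at chr8:84846882-84847181 (minus strand).
Hspa5: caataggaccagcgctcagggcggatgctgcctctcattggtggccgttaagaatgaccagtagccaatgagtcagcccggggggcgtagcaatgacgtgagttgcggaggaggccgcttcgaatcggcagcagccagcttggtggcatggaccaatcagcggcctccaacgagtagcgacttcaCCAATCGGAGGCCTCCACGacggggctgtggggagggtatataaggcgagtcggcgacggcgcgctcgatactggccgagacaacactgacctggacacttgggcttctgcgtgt
Hsp90b1: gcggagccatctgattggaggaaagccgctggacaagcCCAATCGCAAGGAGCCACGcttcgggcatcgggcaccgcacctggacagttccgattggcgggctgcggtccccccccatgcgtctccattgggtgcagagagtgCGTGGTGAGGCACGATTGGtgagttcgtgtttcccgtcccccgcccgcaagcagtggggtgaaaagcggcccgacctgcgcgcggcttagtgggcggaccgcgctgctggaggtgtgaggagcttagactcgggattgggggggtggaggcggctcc
Calr: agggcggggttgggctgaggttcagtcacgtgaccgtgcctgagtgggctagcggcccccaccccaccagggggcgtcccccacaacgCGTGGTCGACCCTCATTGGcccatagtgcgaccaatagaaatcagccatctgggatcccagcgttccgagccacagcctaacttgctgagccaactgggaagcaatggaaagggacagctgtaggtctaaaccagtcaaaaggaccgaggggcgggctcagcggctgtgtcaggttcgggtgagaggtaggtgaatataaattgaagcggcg
Hsp90b1 holds 2 copies, 1 on each strand, and the other 2 promoters hold 1 each. The element was in 0.119% of all 32851 promoters and in 0.165% of those of tested genes, in 5 of 808 promoters of genes called lower (0.619%) and in 0 of 775 promoters of genes called higher. Within the list it was in 8 of 17 genes with a promoter in the table, and Dnajc3, Pdia6, Canx, Creld2 and Syvn1 held it without being called.

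Of 22 tested genes of cytosolic and mitochondrial chaperones 1 rose, 9 fell and 12 were not called, with a median of −0.07. The genes that fell were Hspd1 (−0.17 ± 0.04) and Hspe1 (−0.20 ± 0.04), the mitochondrial chaperonin pair, the HSP90 cochaperone genes Chordc1 (−0.23 ± 0.06), Ahsa1 (−0.17 ± 0.04) and Stip1 (−0.18), and Hspa8, Hspa4, Hsph1 and Cacybp, with −0.26, −0.16, −0.24 and −0.16. The count of called members ran from 2, without WT replicate 1 at 0 h, to 12, without WT replicate 3 at 4 h (2 higher and 10 lower), and was 5 or 6 in 5 other fits without 1 library. Chordc1 lost its call in 1 of these fits and Ahsa1 in 2 (adjusted p up to 0.0542 and 0.0559, without WT replicate 1 and without WT replicate 3 at 0 h). Hspa1b, an inducible Hsp70 gene, rose by 1.00 ± 0.23 (edgeR adjusted p = 0.0118), and its rise was in batch 1. It had 32.8 CPM in LiTEC and 37.1 CPM in WT replicate 1 at 4 h, against 8.14 CPM in LiTEC and 8.71 CPM in WT replicate 1 at 0 h. In batch 2 it had 7.42 to 9.43 CPM at 4 h and 5.93 to 7.39 CPM at 0 h. The change was 2.05 in batch 1 and 0.34 in batch 2 (batch 2 minus batch 1, −1.71; edgeR adjusted p = 0.00229), and this was the 1 gene of 17000 (0.00588%) called for a batch difference. That call was lost without LiTEC replicate 1 at 0 h, WT replicate 1 at 0 h or WT replicate 1 at 4 h, each with 0 genes called, and the rise itself without WT replicate 1 at 0 h (edgeR adjusted p = 0.0517). The near-identical copy Hspa1a, with which reads can be shared, had 0.64 to 1.8 CPM at 4 h and 0.309 to 1.01 CPM at 0 h and was not called (0.63 ± 0.28).

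**Figure D4:**
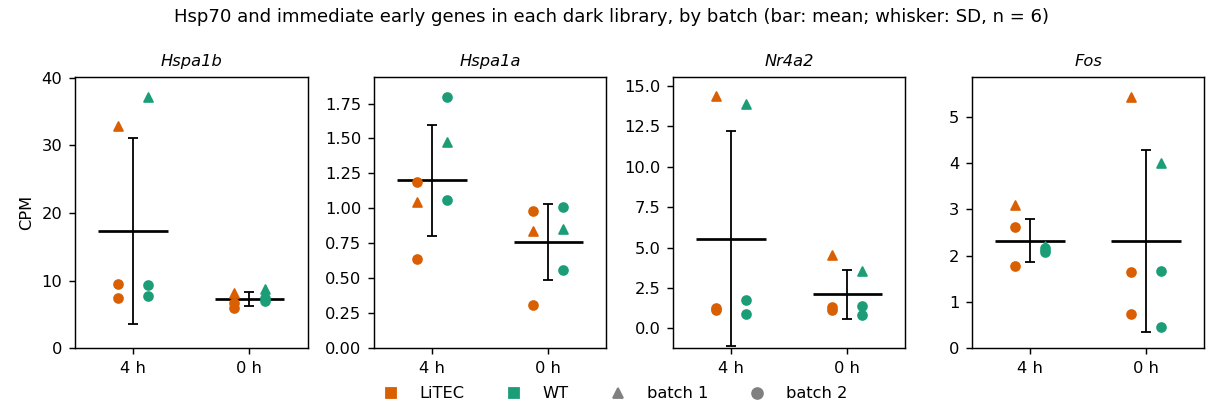
Levels of Hspa1b, Hspa1a, Nr4a2 and Fos in CPM in each dark library at 4 h (left) and 0 h (right), LiTEC in orange and WT in green, batch 1 as triangles and batch 2 as circles, with the mean and SD of the 6 libraries. The 2 batch 1 libraries at 4 h hold 32.8 and 37.1 CPM of Hspa1b, and Nr4a2 is likewise high in them.

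Nr4a2, an orphan nuclear receptor gene, also rose mainly in batch 1, but edgeR did not call its batch difference. Unlike Hspa1b, it was already higher in batch 1 than in batch 2 at 0 h. It had 14.4 CPM in LiTEC and 13.9 CPM in WT replicate 1 at 4 h, against 4.52 CPM in LiTEC and 3.53 CPM in WT replicate 1 at 0 h, and 0.889 to 1.72 CPM at 4 h and 0.827 to 1.37 CPM at 0 h in batch 2. Its pooled change of 1.04 ± 0.27 (edgeR adjusted p = 0.0232) was 1.82 in batch 1 and 0.12 in batch 2, and its call was lost in the 4 fits that left out any 1 batch 1 library (adjusted p up to 0.134, without WT replicate 1 at 0 h). Batch 2 alone called 284 of 16949 genes (1.68%), 154 higher (0.909%) and 130 lower (0.767%). Of the 283 that were also tested with all libraries, 278 (98.2%) had the same direction in batch 1, against 70.5% of all genes.

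Genes of RNA processing that respond to temperature in other settings split. Of 10 tested members of that list 4 rose and 2 fell, with a median of 0.09. Cirbp, the cold-inducible RNA-binding protein gene, had 28.7, 31.0 and 39.8 CPM at 4 h and 20.3, 22 and 25.2 CPM at 0 h (lowest, median, highest) without overlap (0.56 ± 0.09, edgeR adjusted p = 0.00162), whereas Rbm3, its cold-inducible relative, did not pass (−0.00 ± 0.05). The splicing kinase genes Clk3 (0.25 ± 0.05) and Clk4 (0.22 ± 0.06) rose with Rsrp1, and Clk1 was called with the replicate block (0.14 ± 0.05, edgeR adjusted p = 0.0586 without the block and 0.0326 with it). The splicing factor genes Srsf10 (−0.21 ± 0.04) and Tra2b (−0.16) fell. Clk4 lost its call in 7 of the 12 fits without 1 library (adjusted p up to 0.0672, without LiTEC replicate 3 at 0 h).

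Of 20 tested clock genes 4 rose and 0 fell, with a median of 0.14. Per1, a core repressor of the circadian clock, had 29.7, 36.5 and 40.6 CPM at 4 h and 20.5, 26.0 and 33.0 CPM at 0 h (lowest, median, highest), with overlap (0.46 ± 0.07, edgeR adjusted p = 0.00122). The second repressor gene Cry2 (0.25 ± 0.06) and the D-box factor genes Tef (0.27 ± 0.07) and Nfil3 (0.47 ± 0.14) rose, and Dbp (0.33 ± 0.13) and Per2 (0.24 ± 0.30) did not pass. The count ran from 1, without WT replicate 2 at 0 h, to 6 over the fits without 1 library. Nfil3 lost its call in 7 of them (adjusted p up to 0.0886, without LiTEC replicate 1 at 4 h), Cry2 in 2 and Tef in 1 (up to 0.0524 and 0.0537, each without WT replicate 2 at 0 h).

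The following core pluripotency factor genes did not pass the test. Pou5f1 had 311, 364 and 496 CPM at 4 h and 315, 371 and 409 CPM at 0 h (lowest, median, highest; 0.04 ± 0.08), and Nanog (0.01 ± 0.07), Esrrb (−0.02 ± 0.04), Klf4 (0.10 ± 0.06) and Sox2 (−0.12 ± 0.05) were not called. Further out in the network, 1 of 24 naive genes rose and 6 fell, with a median of −0.07. Prdm14, which keeps DNA methylation and ERK signalling low in naive cells, had 12.4, 15.3 and 21 CPM at 4 h and 17.9, 22.2 and 27.4 CPM at 0 h (−0.52 ± 0.09, edgeR adjusted p = 0.0035). Dppa2 (−0.31 ± 0.07), Tbx3 (−0.27 ± 0.06), the Nodal coreceptor gene Tdgf1 (−0.24 ± 0.06), Nr5a2 (−0.23 ± 0.05) and Dppa4 (−0.20 ± 0.04) fell, and the growth factor gene Fgf4 rose (0.27). Of 18 formative and primed genes 0 rose and 3 fell, among them Zic5 (−0.26 ± 0.07) and Utf1 (−0.22 ± 0.07), with a median of −0.14. The replicate block called 5 lower, and 6 were called without WT replicate 3 at 4 h. Utf1 lost its call in 11 of the 12 fits without 1 library (adjusted p up to 0.116, without WT replicate 1 at 4 h). The fit that kept it was the one without WT replicate 3 at 4 h (edgeR adjusted p = 0.000117). The morphogen gene Bmp4 (−0.48 ± 0.12) fell and Lefty1 (0.40 ± 0.10), a Nodal antagonist gene, rose among 14 Nodal, BMP and SMAD genes (1 higher and 2 lower, 3 of each with the block, 6 called without WT replicate 3 at 4 h). Lefty1 lost its call in 3 of the 12 fits (up to 0.0769, without WT replicate 1 at 0 h). In the Notch list 3 of 13 rose, among them the receptor gene Notch1 (0.36 ± 0.04), with 134, 146 and 171 CPM at 4 h and 97.8, 119 and 134 CPM at 0 h (lowest, median, highest). The ligand gene Dll1 (0.76) and the receptor-modifying gene Lfng (0.57) were the others. Dll1 lost its call in 9 of the 12 fits without 1 library and Lfng in 5 (adjusted p up to 0.112 and 0.0725). Without WT replicate 3 at 4 h 2 Notch genes were called higher and 1 lower, with Dll1 at an edgeR adjusted p of 0.0598, and 1 Notch gene stayed called without LiTEC replicate 3 at 0 h, LiTEC replicate 3 at 4 h or WT replicate 1 at 0 h.

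Cell cycle and ribosome genes shifted little, and their counts stand beside shares of 5.64% higher and 5.06% lower among all tested genes. In the third of genes with the highest mean CPM the shares were 7.16% and 7.23%. Of 25 G2/M genes 2 rose and 4 fell (median −0.04), led by the kinetochore gene Cenpf (−0.28 ± 0.06), and the count of called genes ran from 1, without WT replicate 1 or 2 at 0 h or WT replicate 1 at 4 h, to 9, without WT replicate 3 at 4 h. Of 26 G1/S genes 1 fell, Tipin (−0.14 ± 0.04), which lost its call in 9 of the 12 fits without 1 library (adjusted p up to 0.111, without WT replicate 1 at 0 h), and 4 fell with the block or without WT replicate 3 at 4 h. Of 78 cytosolic ribosomal protein genes 6 fell and 0 rose (median −0.05), by 0.17 to 0.24 on the log2 scale, and with the block 13 fell and 1 rose. The count of called ribosomal protein genes ran from 1, without WT replicate 1 at 0 h, to 8 over the fits without 1 library. The nucleolar gene Npm1 fell by 0.18 on the log2 scale, and was the 1 called gene of 24 in ribosome biogenesis, where 4 were called without WT replicate 3 at 4 h. Uhrf1, which guides maintenance DNA methylation, was the 1 gene of 10 that edgeR called in that list (−0.20), where DESeq2 called 4. In it 3 genes were called lower without WT replicate 3 at 4 h, 3 were called without WT replicate 2 at 4 h, and 1 was called higher and 3 lower with the replicate block.

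Of 13 tested transcripts of the mitochondrial genome 4 fell, 0 rose and 9 were not called, with the lowest median of any list (−0.40). mt-Nd2, a subunit gene of respiratory complex I, had 1357, 1827 and 1453 CPM in LiTEC cells and 1080, 1391 and 672 CPM in WT cells at 4 h, against 1663, 2229 and 1929 CPM in LiTEC cells and 1524, 1962 and 1726 CPM in WT cells at 0 h. The lowest value was in WT replicate 3 at 4 h, the library with the large ribosomal RNA share, and each same-numbered pair was lower at 4 h (−0.52 ± 0.13, edgeR adjusted p = 0.0201). Without that library the change was −0.38 (edgeR adjusted p = 0.000236), 7 of the 13 genes were called lower and the median was −0.32. mt-Nd1, mt-Cytb and mt-Co3 changed by −0.38 ± 0.09, −0.40 ± 0.08 and −0.45 ± 0.10. Counts of mt-Co3 were low, with 6 to 13 CPM per library against 1722 to 3741 CPM for mt-Cytb. Without WT replicate 1 at 0 h 2 of the 13 were called. mt-Nd2 and mt-Nd1 lost their calls there (edgeR adjusted p = 0.0555 and 0.0515).

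Several lists held no called gene in edgeR: NRF2 targets (0 of 20, with 2 at an unadjusted p under 0.05 and 1 called by DESeq2), Wnt targets (0 of 12, 1 and 0), 2-cell-like genes (0 of 8, 0 and 0) and snoRNA host RNAs (0 of 14, 1 and 0). Without WT replicate 3 at 4 h edgeR called 3 NRF2 targets higher and 1 Wnt target lower. The replicate block called 1 NRF2 target and 1 snoRNA host higher, and 1 Wnt target in each direction. NRF2 targets had 1 called gene without LiTEC replicate 1 at 0 h and 1 without WT replicate 2 at 4 h. Of 36 splicing factor genes 1 rose (Srsf5, 0.15) and 2 fell (Prpf3, −0.18, and Snrpd1, −0.23), with 0 called without WT replicate 1 at 0 h and 1 higher and 5 lower without WT replicate 3 at 4 h. Srsf5 lost its call in 11, Prpf3 in 10 and Snrpd1 in 1 of the 12 fits without 1 library. Of 23 genes of RNA polymerase II pausing and elongation 3 rose, Ell (0.23), Hexim1 (0.23) and Ccnt2 (0.15), with a median of −0.01. In each of 7 fits without 1 library 1 gene of that list was called. Ccnt2 lost its call in 11, Hexim1 in 8 and Ell in 0 of the 12 fits. Ccnt2 kept its call only without WT replicate 3 at 4 h (0.17, edgeR adjusted p = 0.00273). Of 7 interferon response genes 0 rose and 2 fell, the antiviral genes Ifit2 (−0.98 ± 0.17) and Ddx58 (−0.49 ± 0.11), with a median of 0.03. With the replicate block 1 was called higher and 2 lower, and the same counts held without WT replicate 3 at 4 h. Samd9l, another interferon-linked gene, fell by 0.81 on the log2 scale. Among the remaining large falls were the phospholipase gene Pla2g4c (−0.95 ± 0.18), the transcription factor gene Ebf1 (−0.79 ± 0.13) and Krcc1 (−0.71 ± 0.10). Among the large rises were the transporter genes Slc22a17 (0.84 ± 0.11) and Slc26a11 (0.71 ± 0.12), the factor gene Sp6 (0.82 ± 0.16) and Ndst2 (0.68 ± 0.09), an enzyme gene of heparan sulphate synthesis.

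Called genes that rose and fell differed in make-up. Of genes called higher 19.5% were annotated as non-coding, of genes called lower 7.43% and of all tested genes 12.5%. The median GC content of the longest transcript was 51.3% among genes called higher, 46.9% among those called lower and 49.0% among all tested genes. Among the 5410 genes of highest GC content 7.54% were called higher and 2.98% lower, and among the 5410 of lowest GC content 4.42% were called higher and 6.54% lower. The median log2 fold change of the genes of highest GC content was 0.04 with all libraries and 0.01 without WT replicate 3 at 4 h. Whether GC content has a part in single genes' values was not tested.

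Read separately, the genotypes gave fewer calls. LiTEC cells had 52 called genes of 17000 (0.306%), 32 higher (0.188%) and 20 lower (0.118%), and WT cells had 469 (2.76%), 261 higher (1.54%) and 208 lower (1.22%). With the replicate block the counts were 367 in LiTEC cells (2.16%; 1.16% higher, 0.994% lower) and 1506 in WT cells (8.86%; 4.51% higher, 4.35% lower). No gene was called for a difference between the LiTEC and WT changes by edgeR or DESeq2, with 542 genes at an unadjusted p under 0.05 and a smallest adjusted p of 0.232 in edgeR. Of the 469 genes called in WT cells, 457 (97.4%) had the same direction in LiTEC cells, against 69.6% of all tested genes, and 36 were called in both. All 52 genes called in LiTEC cells had the same direction in WT cells. Myc, for example, changed by −0.84 in LiTEC cells and −1.27 in WT cells, and Ppp1r10 by −0.80 and −0.87. Leaving out any 1 LiTEC library cut the LiTEC count to between 0 and 2. That count was 0 without LiTEC replicate 2 at 0 h, LiTEC replicate 1 at 4 h or WT replicate 1 at 0 h. It rose to 342 without WT replicate 3 at 4 h. The WT count ran from 31, without WT replicate 1 or 3 at 0 h, to 826 without WT replicate 2 at 4 h.

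The same 4 h span in lit cultures, in 12 libraries that the dark comparison does not use, called 2086 of 16857 genes (12.4%), 6.7% higher and 5.67% lower. Of 1803 genes called in the dark and tested in both, 1574 (87.3%) changed the same way in lit cultures, against 67.2% of all genes tested in both. Of those 662 were called in the same direction and 19 in the opposite one. Ppp1r10 changed by −0.84 in dark and −0.71 in lit cultures, Myc by −1.07 and −1.36, Ccng2 by 0.90 and 0.96, and Rsrp1 by 0.52 and 0.57. A direct test of the dark minus lit change called 244 of 17694 genes (1.38%), 140 with a higher (0.791%) and 104 with a lower (0.588%) change in the dark. With the replicate block it called 514. Hspa1a stood farthest apart among the named genes, with changes of 0.63 in dark and −4.33 in lit cultures (difference 4.41 ± 0.45, edgeR adjusted p = 7.81e-06), followed by Hspa1b with 1.00 and −1.88 (2.83 ± 0.34). In lit cultures the 0 h libraries followed the 30 min of light directly. Clk4 changed by 0.22 in dark and −0.15 in lit cultures, and Clk3 by 0.25 and −0.02, with both differences called. Bcl6 changed by −0.40 in dark and 0.45 in lit cultures, and Notch1 by 0.36 and 0.65. Snhg4 and Gas5, host genes of small nucleolar RNAs named here after their values were seen, changed by 0.09 and −0.00 in dark and by 1.06 and 0.60 in lit cultures.

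**Figure D5:**
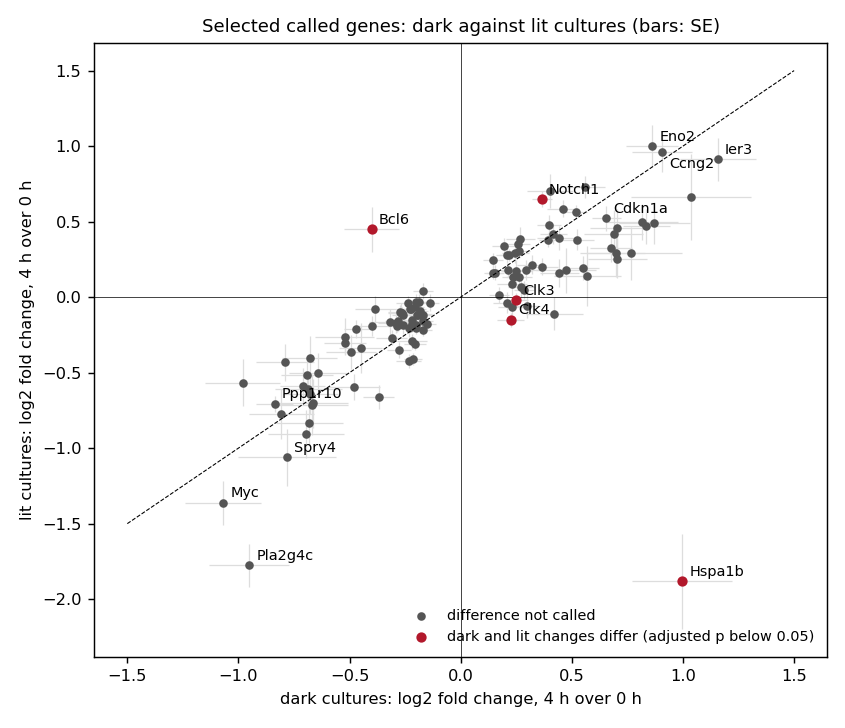
Log2 fold changes of 4 h over 0 h in dark cultures (horizontal) and in lit cultures (vertical) for the named genes called in the dark, with standard errors as bars and the dashed line marking equal change. Most genes lie near the dashed line, and the genes in red, Hspa1b, Bcl6, Notch1, Clk3 and Clk4, are called for a difference between the 2 changes.

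Because the strand setting of the counting is not given, values of genes whose exons overlap another gene are uncertain, among them Junb with Prdx2, Stat3 with Stat5a, Clk3 with Edc3, Sqstm1 with Mrnip, Pdia3 with Catsper2, Hspd1 with Hspe1, mt-Co3 with mt-Atp6, Dbp with Sphk2, and Ahsa1, Bcl6, Bmp4, Cdkn1a, Clk4, Cry2, Dll1, Hsp90b1, Hspa1a, Irs1, Irs2, Lss, Notch1, Pou5f1, Rbm3, Rragc, Sp6, Tbx3, Tef and Zfp36l1 with less studied genes. The ribosomal protein genes have many near-identical pseudogenes, and their counts are uncertain for that reason too.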

How the data were processed

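Messenger RNA of mouse embryonic stem cells was sequenced in 36 libraries, 12 of which make up the dark comparison. Per the labels' protocols, RNA was taken with TRIzol and stranded poly(A) libraries were made. The authors deposited raw counts per gene, and the submitters' processing notes name FastQC, featureCounts and mm10 (GRCm38). Not given in the sources used here are the aligner, the strand setting and all versions. Of 54842 genes, 17000 passed edgeR's filterByExpr (minimum count 10). TMM-scaled counts were fitted with edgeR 4.0.16 (limma 3.58.1, R 4.3.3; glmQLFit, glmQLFTest) with genotype, batch and time, leaving 8 residual degrees of freedom. Benjamini-Hochberg adjustment covered the 17000 genes, with calls below 0.05. DESeq2 1.42.0 was an alternative. The standard error is the log2 fold change divided by the square root of F. The fits for single genotypes, batches and lit cultures are separate models. The 1 h means are on a scaling of 18 dark libraries.

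The members and lists were chosen with earlier results of these data known. Named genes were the 14 higher and 14 lower called genes with the largest change among genes of at least 5 CPM, up to 5 called members of each list by p, and a set of fixed genes; further list members, and Snhg4 and Gas5, were named after their values were seen. Positions are from GENCODE M21 and promoters from RefSeq. Same-numbered libraries correlated in their deviations from group means with r of 0.285 to 0.736 (other numbers −0.524 to 0.122), and 12 of 12 were closest to their own number, so the numbers were taken to pair the libraries. The fitting script was tested on simulated data. Some list members are not reported here.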

Additional observations from a re-analysis of the deposited data

Results flagged for a closer look

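In 6 of 276 sets of 6 libraries examined, the highest or lowest value lay far from the rest by Dixon's test, where chance gives about 1 in 20, or 13.8. The share of counts on Gm26917 was 26.12% in WT replicate 3 at 4 h, with the next library at 10.83%. LiTEC replicate 3 at 4 h held 12969811 counts, with the next at 16492530. Egr1, an immediate early gene, had 3.679 CPM in WT replicate 1 at 4 h. Btg2 had 37.8 CPM in LiTEC replicate 1 at 0 h, Krcc1 had 30.57 CPM in LiTEC replicate 2 at 0 h, and Sp6 had 4.454 CPM in WT replicate 2 at 0 h.

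The change over 4 h differed between dark and lit cultures in the direct edgeR test for 8 named genes. The difference, dark minus lit on the log2 scale, was 4.414 for Hspa1a, 2.831 for Hspa1b, 1.596 for Egr1, 0.3737 for Clk4 and 0.2695 for Clk3. It was −0.8437 for Bcl6, −0.2931 for Sox2 and −0.2848 for Notch1. For Hspa1b the dark change also differed between batches, by −1.712 for batch 2 minus batch 1.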

How the results depend on the processing

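The count of 1819 genes called with both genotypes was 2814 with all 36 libraries fitted, 2816 with the replicate block, 3176 with a replicate block per genotype, 2738 with the Gm26917 share as a covariate, 704 with no batch term and 284 in batch 2 alone. It ran from 920 to 2233 without 1 library. The LiTEC count of 52 was 397 with all 36 libraries, 367 under the replicate block, 550 where each genotype had its own block, 222 with DESeq2, 392 with the Gm26917 covariate, 304 with no expression filter, and 0 with no batch term or in batch 2 alone. It ran from 0 to 342 without 1 library. The WT count of 469 was 1512 with all 36 libraries, 1506 under the replicate block, 2083 where each genotype had its own block, 883 with DESeq2, 1227 with no expression filter, 28 with no batch term and 0 in batch 2 alone. It ran from 31 to 826 without 1 library. The count of 0 for a genotype difference was 28 with no expression filter and 0 to 1 without 1 library. The 1 gene called for a batch difference gave 0 to 1 without 1 library. The 244 genes called for dark minus lit were 514 with the replicate block. The cause of these shifts was not tested. DESeq2, other scaling, the filters and leaving out the ribosomal RNA loci kept the pooled count within 1.5 times. Of 119 called named genes, 0 changed sign under any alternative and 40 lost their call without at least 1 library. At 12 libraries, calls of small changes rest on few residual degrees of freedom.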
